A study of Mus musculus with 6 samples.

Results

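Chromosome 19 was examined in 5 mouse malignant mesotheliomas, tumours of the lining of the body cavities. It was taken as the probes that the denser array design places on chromosome 19 of the mm7 assembly, 6298 of 232626 positioned probes, of which 1295 are also on the sparser design, out of 41845 there. The chromosome was selected on its log2 ratio, which was high in these same arrays, so that level is described and not tested. The probes span chr19:3041962-61209682 and carry 840 gene names.

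Genomic DNA was measured on arrays of oligonucleotide probes, to which tumour DNA and reference DNA in different dyes were hybridised together (array comparative genomic hybridisation). Tumour DNA carried Cy5 and C57BL/6J reference DNA carried Cy3 on all 6 arrays, with no dye swap. The tumours ARF-104, ARF-112 and ARF-129 were hybridised to the denser design, ARF-110 to the sparser one, and ARF-128 to both, its denser array being titled ARF-128PlusMinus. The 2 arrays of ARF-128 enter every comparison as 1 tumour, and its value is from the denser one where the sparser one is not named. The study's description gives the genotype Arf (+/-) for 4 mice, while 5 tumours are named, and its title speaks of asbestos-induced mesothelioma. The labels describe primary malignant mesothelioma cells for 4 of the tumours and give no cell type for ARF-104. The mouse strain of the tumours, the passage of the cells and the share of tumour cells were not stated in the sources used here. All 5 tumours form a single group, the only comparison partner is the reference DNA, and the spread between reference mice was not measured. Values are log2 of tumour over reference signal, centred on the autosomal median of each array.

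A gain of a whole chromosome gives every gene on it the same raised copy number, so that growth-promoting and growth-restraining genes are carried along together. Mouse chromosome 19 holds genes of both kinds. Among them are Sufu, a brake on Hedgehog signalling, Jak2, a kinase of cytokine receptors, and Rela, Chuk and Nfkb2 of the NF-kB pathway. It also holds Ide, the insulin-degrading enzyme, and Fgfbp3, a secreted FGF-binding protein. Both are known to be present in an extra copy in some C57BL/6J mice. Because the array reports tumour over reference, an extra copy in the reference lowers the ratio just as a missing copy in the tumour does.

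The array values below turn on a few probes, whose sequences are shown because they bound the stretches where the level along the chromosome was interrupted. They are the probe sequences of the deposited files, in lower case throughout, and the sources used here do not give the strand. The first 4 bracket the Ide stretch. The last probe before it lies at chr19:36923510-36923569 and the first probe in it at chr19:36930674-36930733. The last probe in it lies at chr19:37071656-37071715 and the first probe after it, in Kif11, at chr19:37083414-37083473.
Last probe before the Ide stretch: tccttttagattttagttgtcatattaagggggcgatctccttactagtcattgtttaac
First probe in the Ide stretch: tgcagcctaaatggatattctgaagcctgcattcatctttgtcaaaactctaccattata
Last probe in the Ide stretch: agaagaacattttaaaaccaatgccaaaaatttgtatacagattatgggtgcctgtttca
First probe after the Ide stretch: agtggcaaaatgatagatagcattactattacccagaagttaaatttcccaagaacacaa

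The single probe of Fgfbp3 lies at chr19:36618779-36618837, 312 kb before the Ide stretch.
Fgfbp3 probe: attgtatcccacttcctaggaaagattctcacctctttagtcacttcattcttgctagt

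The next sequences are the outermost probes of 3 stretches in which ARF-112 departed from the other tumours. Their first probe lies in Fermt3, at chr19:6824822-6824881, and the last one lies in Tcf7l2, at chr19:55822421-55822480.
ARF-112 stretch 1, first probe: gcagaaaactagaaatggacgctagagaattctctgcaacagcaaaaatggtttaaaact
ARF-112 stretch 1, last probe: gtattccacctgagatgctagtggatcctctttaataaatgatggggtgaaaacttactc
ARF-112 stretch 2, first probe: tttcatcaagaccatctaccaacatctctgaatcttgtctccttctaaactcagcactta
ARF-112 stretch 2, last probe: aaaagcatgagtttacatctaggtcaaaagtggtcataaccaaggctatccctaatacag
ARF-112 stretch 3, first probe: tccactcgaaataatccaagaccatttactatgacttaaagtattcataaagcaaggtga
ARF-112 stretch 3, last probe: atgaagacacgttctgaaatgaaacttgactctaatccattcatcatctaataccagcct

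Chromosome 19 lay above the reference in every tumour. Its mean log2 ratio was 0.40 for ARF-104, 0.51 for ARF-110, 0.24 for ARF-112, 0.45 for ARF-128 and 0.58 for ARF-129, a mean of 0.43 ± 0.13 (SD, n = 5). The sparser array of ARF-128 gave 0.43. ARF-129 was highest and ARF-112 lowest. An extra copy in every cell of a diploid tumour would give 0.58, the level of ARF-129, and the tumour signal of ARF-112 was 118% of the reference signal. Chromosome 19 was the highest of the 19 autosomes in ARF-110 and in both arrays of ARF-128. It stood second in ARF-104, behind chromosome 8 (0.43), and second in ARF-112, behind chromosome 15 (0.52). In ARF-129 it stood behind chromosomes 15 (0.62) and 8 (0.60).

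The gain was carried by probes along the whole chromosome. In ARF-110 99.2% of chromosome 19 probes had a ratio above 0, against 48.4% of the probes of the other autosomes. The lowest share was in the denser array of ARF-128, at 71.5% against 49.4%. That array had the largest probe noise, a single-probe SD of 0.78 estimated from differences between neighbouring probes, while ARF-110 had the smallest, 0.15. ARF-104, ARF-112 and ARF-129 had 0.36, 0.39 and 0.49. Those 3 arrays were scanned on 1 day, ARF-110 and the sparser array of ARF-128 on another, and the denser array of ARF-128 on the third day. Once the level of the chromosome had been taken out, probe values of the arrays of 1 day correlated at 0.90 for each pair of ARF-104, ARF-112 and ARF-129 and at 0.61 for ARF-110 and the sparser array of ARF-128. Arrays of different days correlated at 0.17 (ARF-110 and the denser array of ARF-128) to 0.72 (the sparser array of ARF-128 and ARF-129). The chromosome 19 probes had the same mean GC content, 36.6%, as those of all autosomes. A base composition adjustment left the mean level at 0.43.

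Cut into windows of 5 Mb, all 13 windows lay above 0 on every array. The windows of ARF-110 ranged from 0.48 to 0.54, and those of ARF-129 from 0.45 to 0.67. In ARF-104 the windows ranged from 0.30 to 0.47, and in the denser array of ARF-128 from 0.35 to 0.54. ARF-112 had the lowest window of all, 0.13 between 55 and 60 Mb, and its highest window reached 0.31. The window from 35 to 40 Mb was the lowest in ARF-104, in ARF-129 and on the sparser array of ARF-128. It holds the Ide stretch, where the sparser design has no probe, but was low outside that stretch too. The bins of 1 Mb from 38 to 40 Mb read 0.25 and 0.27 in ARF-104 and 0.41 and 0.40 in ARF-129.

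The span was cut into 3 equal parts, and the distal part was set against the proximal one. The distal part averaged 0.42 and the proximal part 0.40 in ARF-104. In ARF-129 the distal part averaged 0.61 and the proximal part 0.59. ARF-112 ran the other way, with 0.23 in the distal part and 0.25 in the proximal part. The mean difference, distal minus proximal, was 0.0074 ± 0.016 (SD, n = 5), and 4 of 5 tumours were higher distally (exact two-sided sign-flip permutation test, p = 0.375). The smallest p that 5 tumours allow is 0.0625. Cut into 2 equal parts, the sign turned, with a distal minus proximal difference of -0.0083 (exact sign-flip permutation p = 0.0625).

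Segmentation by penalised least squares divided the chromosome at few points. ARF-110, ARF-129 and both arrays of ARF-128 each had 1 segment from end to end, called gained at 0.51, 0.58, 0.45 (denser) and 0.43 (sparser). ARF-104 had 4 segments. Its first 7164 kb stood at 0.47, the next 26713 kb at 0.38, the Ide stretch at -0.51, and the last 24126 kb at 0.41. ARF-112 had 5 segments, namely 0.246 up to the Ide stretch, -0.63 in it, 0.27 for 17756 kb after it, -0.12 over 990 kb and 0.18 to the end. A segment was called gained at 0.25 or more, so the first 33882 kb of ARF-112 fell just short of the call.

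Of the bins of 1 Mb, 59 of 59 were called gained in ARF-104, in the denser array of ARF-128 and in ARF-129, beside 17.0%, 7.70% and 20.0% of all autosomal bins. In ARF-110 and in the sparser array of ARF-128 all 56 measured bins were called, beside 12.8% and 7.89%. ARF-112 had 16 of 59 bins called, beside 8.46%. In all 5 tumours together, 14 of 56 bins of chromosome 19 were called gained. These 14 were also all the bins called in 5 tumours among 2179 autosomal bins, or 0.642%. The other 42 bins of chromosome 19 were called in 4 tumours. Without ARF-112 the count was 56 of 56. It was 55 with a threshold of 0.15, and 0 with a threshold of 0.35, a penalty of 10 log n, normexp background correction, or the probes of both designs alone.

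The deepest interruption of the gain was the Ide stretch, chr19:36930674-37071715, which is 141 kb long and holds 19 probes of the denser design and none of the sparser one. Its mean was -0.51 in ARF-104, -0.63 in ARF-112 and -0.29 in ARF-129, whereas the denser array of ARF-128 stood at 0.45. Relative to the median of the probes within 1 Mb on either side, the stretch was lower by 0.87 in ARF-104, with a probe standard error of 0.093. It was lower by 0.88 in ARF-112 and by 0.83 in ARF-129, with standard errors of 0.077 and 0.11. In those 3 tumours its signal was 54.7%, 54.5% and 56.2% of that of its flanks. In ARF-128 it was 105%, a difference of 0.07 with a standard error of 0.18. All 19 probes lay below the flank median in ARF-104, ARF-112 and ARF-129, against 9 of 19 in ARF-128. These 19 probes found the stretch, so the values describe it and no test was made.

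Segmentation of ARF-104 and of ARF-112 put the edges between the same pairs of probes, those printed above. In ARF-129 the stretch was cut out with the same edges once the penalty was lowered to 3 log n, at -0.29. With a penalty of 10 log n, chromosome 19 was 1 segment on every array. Neither the Ide stretch nor the 990 kb segment of ARF-112 was then cut out. Ide, with 10 probes, averaged -0.62 in ARF-104, -0.78 in ARF-112 and -0.47 in ARF-129, whereas it averaged 0.59 in ARF-128. The array of ARF-128 is also the one from the other scan day, and whether the 3 tumours or the reference DNA differed from it there cannot be told apart.

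Fgfbp3 showed the same pattern at its own place. Its single probe read -0.89 in ARF-104, -0.94 in ARF-112 and -0.63 in ARF-129, whereas ARF-128 gave 0.20. Relative to the flank median the difference was -1.20 in ARF-104 and -1.13 in ARF-112. In ARF-129 the flank median was 0.46, and in ARF-128 the difference was -0.16. The Fgfbp3 probe began a run of 6 neighbouring probes, 58.0 kb long, that were below 0 in ARF-104, ARF-112 and ARF-129 alike. The run averaged -0.46, -0.59 and -0.28 in these tumours, and 0.07 in ARF-128, where 3 of 6 probes were below 0. Of 583 runs of neighbouring probes below 0 in these 3 tumours on chromosome 19, 2 had at least 6 probes. The longest, of 9 probes, lies in the Ide stretch. The 1 probe of the Fgfbp3 run on the sparser design read 0.70 in ARF-110, and on the sparser array of ARF-128 it read 0.20. The run was picked out after its values had been seen.

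Kif11, the mitotic spindle kinesin next to the Ide stretch, and Cpeb3, an RNA-binding protein on its other side, were above 0 on average. Kif11 read 0.59 for ARF-104, 0.58 for ARF-110, 0.46 for ARF-112, 0.99 for ARF-128 and 0.81 for ARF-129, above 0 in 5 of 5. It was higher than its flanks by 0.32 (limma, adjusted p = 0.046, and adjusted p = 0.333 with an estimated correlation within scan days). Cpeb3, with 25 probes, averaged 0.38 ± 0.14 (SD, n = 5). Hhex, a homeobox gene measured by 1 probe, was spread from -0.83 in ARF-128 to 0.53 in ARF-110.

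ARF-112 departed from the other tumours in 3 stretches. The second and the third lie inside its 990 kb segment described above, chr19:54857428-55847465, and are not further low regions beside it. All 3 stretches were found by segmenting the probe-by-probe difference between arrays, a step added after the data had been seen. It removes what 2 arrays share at a probe, and the noise of ARF-112 minus ARF-104 was 0.16, against 0.39 and 0.36 for ARF-112 and ARF-104 alone. That difference had 6 breakpoints on chromosome 19, and ARF-129 minus ARF-112 had 6 as well, 5 of them between the same probes. ARF-129 minus ARF-104, in which ARF-112 takes no part, had 0 and stood at 0.18 from end to end. None of these differences had a breakpoint at the Ide stretch. The differences share ARF-112 and are not separate evidence. Over all autosomes, ARF-112 minus ARF-104 had 85 short interior segments of at most 100 probes, of which chromosome 19 held 4, or 4.71%, and ARF-129 minus ARF-112 had 52, of which it held 4, or 7.69%. Chromosome 19 holds 2.86% of the autosomal probes. Each count of 4 includes the piece between the second and the third stretch.

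The first stretch, chr19:6824822-7083843, is 259 kb long and holds 45 probes. ARF-112 stood at -0.09 there and at 0.30 in its flanks, a difference of -0.39 with a probe standard error of 0.059. The other denser arrays stood at 0.52 in ARF-104, 0.37 in ARF-128 and 0.77 in ARF-129, and ARF-110 stood at 0.64. The stretch holds Macrod1, an ADP-ribose hydrolase, Stip1, a co-chaperone of Hsp70 and Hsp90, the deubiquitinase Otub1, and Cox8a, a subunit of cytochrome c oxidase. It also holds most of Fermt3, an integrin activator of blood cells. Macrod1, with 21 probes, read 0.52 for ARF-104, 0.71 for ARF-110, -0.06 for ARF-112, 0.13 for ARF-128 and 0.83 for ARF-129. Stip1 read -0.27 in ARF-112, against 0.51, 0.57 and 0.64 on the other denser arrays.

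The second stretch, chr19:54949369-55164623, is 215 kb long and holds 28 probes. ARF-112 stood at -0.12 there and at 0.25 in its flanks. ARF-104 stood at 0.58, ARF-110 at 0.61, ARF-128 at 0.57 and ARF-129 at 0.89. The stretch holds Gpam, which makes lysophosphatidic acid at the mitochondrion, and Tectb, a component of the tectorial membrane of the inner ear. Gpam read -0.49 in ARF-112 and between 0.15 and 0.58 in the other tumours. Tectb read -0.08 in ARF-112 and at least 0.44 in the others. In the 3 stretches ARF-112 minus ARF-104 averaged -0.62, -0.71 and -0.68. This difference lay below its median over the chromosome at 42 of 45, 28 of 28 and 55 of 56 probes, which are the probes that segmenting the same difference picked out.

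The third stretch, chr19:55390344-55822480, is 432 kb long and holds 56 probes. ARF-112 stood at -0.27 there and at 0.22 in its flanks, a difference of -0.49 with a probe standard error of 0.062. ARF-104 stood at 0.41, ARF-110 at 0.54, ARF-128 at 0.27 and ARF-129 at 0.59. The stretch takes in 21 of the 43 probes of Vti1a, a vesicle fusion protein, and 24 of the 27 probes of Tcf7l2, a transcription factor of the Wnt pathway. The Vti1a probes in the stretch read -0.40 in ARF-112, and the Tcf7l2 probes read -0.13. In ARF-104 those probes read 0.36 and 0.49, and in ARF-129 they read 0.50 and 0.73. In the piece between the second and the third stretch, of 33 probes, ARF-112 minus ARF-104 averaged -0.28, against -0.22 after the third stretch.

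The denser array of ARF-128 had no such stretch in its differences, which were noisier (0.58 to 0.61). ARF-128 minus ARF-112 had a single breakpoint, after the first 7896 kb, and none at the stretches of ARF-112. Among the differences, those stretches were thus cut out only between arrays of the same scan day. In ARF-112 alone, its 990 kb segment takes in the second and the third stretch. With a penalty of 3 log n, ARF-112 alone was also cut at chr19:6814175-7076023, 46 probes at -0.11, which covers most of the first stretch. The differences of ARF-128 from ARF-104 and from ARF-129 also had a single breakpoint, after the first 4206 kb and the first 4209 kb of the chromosome. ARF-128 minus ARF-104 was -0.11 before it and 0.07 after it. On the sparser array of ARF-128 this end of the chromosome was not low. The window from 0 to 5 Mb read 0.38 on the denser and 0.48 on the sparser array. Over the 1295 shared probes, the 2 arrays of ARF-128 correlated at 0.36, with a median absolute difference of 0.52. Over 56 bins of 1 Mb they correlated at 0.03, and the median absolute difference was 0.087. The mean of the shared probes was 0.34 on the denser and 0.43 on the sparser array, and the mean of the bins was 0.45 and 0.43.

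Of the 62 listed genes of chromosome 19, 58 were on the arrays and 52 had a value in every tumour. The median level of these 52 was 0.39, beside 0.44 for 687 genes of chromosome 19 and -0.01 for 20049 autosomal genes. In all 5 tumours 40 of the 52, or 76.9%, lay above 0, beside 71.3% for chromosome 19 and 14.7% for all autosomal genes. A level above 0 follows from how the chromosome was chosen. To take that level out, each gene was set against the median of the probes within 1 Mb on either side, and this departure was tested with limma over 19743 autosomal genes.

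In the values without normexp background correction or loess, single genes departed from their flanks on chromosome 19 about as often as elsewhere. After Benjamini-Hochberg adjustment 60 of 684 chromosome 19 genes were higher than their flanks, or 8.77%, beside 7.25% of all autosomal genes. A further 70 were lower, or 10.2%, beside 9.96%. With normexp background correction the counts were 97 higher and 53 lower of 684, beside 1849 and 930 of 19743 autosomal genes. Chromosome 19 then had the larger share in both directions, and the cause was not tested. Leaving out ARF-104, ARF-112 or ARF-129, the 3 arrays of 1 scan day, gave 0 calls in either direction. Leaving out ARF-128 gave 91 chromosome 19 genes called higher and 88 lower. Without ARF-104, 92 were higher and 113 lower at an unadjusted limma p under 0.05, beside 136 and 163 with all tumours. Whether the calls rest on that scan day alone cannot be told from these counts. Scan day entered as a random block, and with it, at an estimated correlation of 0.87, limma also called 0 genes. At an unadjusted p under 0.05 in that fit, 50 of 684 chromosome 19 genes were higher and 65 lower, beside 1222 and 1703 of 19743 autosomal genes. Departures of single probes shared by arrays of 1 day and true departures in copy number cannot be told apart in this design.

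Among genes of NF-kB signalling and cell death, 7 of 7 were measured, with a median level of 0.31. Rela, the p65 subunit of NF-kB, read 0.34 for ARF-104, 0.48 for ARF-110, 0.22 for ARF-112, 0.00 for ARF-128 and 0.49 for ARF-129. On the sparser array ARF-128 gave 0.44. Chuk, the IKK-alpha kinase, averaged 0.30 ± 0.17 (SD, n = 5) and was above 0 in 5 of 5. It was the 1 gene of the list called below its flanks, at -0.25 (limma, adjusted p = 0.038), and adjusted p = 0.346 with an estimated correlation within scan days. The median departure of the 7 genes was -0.20. Btrc, a ubiquitin ligase subunit that marks IkB for destruction, had 20 probes and averaged 0.52 ± 0.14 (SD, n = 5). The death receptor Fas averaged 0.23 ± 0.26 (SD, n = 5). It had its lowest value on the noisier denser array of ARF-128, and the sparser one gave 0.61.

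Tumour suppressors and brakes on growth lay in the gain as well. Of 10 listed, 9 were measured, with a median level of 0.39, and 8 were above 0 in all 5 tumours. Sufu averaged 0.38 ± 0.13, Smarca2, a chromatin remodelling ATPase, 0.46 ± 0.20, and Mxi1, an antagonist of Myc, 0.39 ± 0.10 (SD, n = 5 each). Men1, which encodes menin, was read by 1 probe that ranged from 0.59 to 2.29. No gene of this list departed from its flanks by limma after adjustment, and Pdcd4, an inhibitor of translation, had the lowest adjusted p (0.057). At an unadjusted p under 0.05, 2 of 9 were higher and 2 lower, beside 136 and 163 of 684 genes of chromosome 19.

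Of 12 genes of growth signalling, 10 were measured in every tumour, with a median level of 0.52. Jak2 read 0.49 for ARF-104, 0.43 for ARF-110, 0.38 for ARF-112, 0.73 for ARF-128 and 0.77 for ARF-129. Gnaq, a G protein alpha subunit, had 35 probes and averaged 0.53 ± 0.17 (SD, n = 5). Both were above 0 in 5 of 5. Fgf8, a fibroblast growth factor with 1 probe, was higher than its flanks by 0.37 (limma, adjusted p = 0.044, and adjusted p = 0.346 with an estimated correlation within scan days). Grk2, a kinase of G protein-coupled receptors, was lower by 0.25 (an effect of -0.25, limma adjusted p = 0.046, and 0.40 with an estimated correlation as the adjusted p). Tcf7l2 was at 0.43, 0.51, 0.30 and 0.64 in the tumours other than ARF-112, where it was at -0.15.

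The list of immune ligands and interferon-induced genes gave the lowest list median, 0.26, over 5 of 6 genes measured. Cd274, which encodes the checkpoint ligand PD-L1, lay below the reference in 4 of 5 tumours within the gain. It read -0.06 for ARF-104, 0.37 for ARF-110, -0.19 for ARF-112, -0.21 for ARF-128 and -0.10 for ARF-129. The sparser array of ARF-128 gave -0.01. Its departure from the flanks was -0.54 (limma, adjusted p = 0.036, and adjusted p = 0.333 with an estimated correlation within scan days). It rests on 4 probes of the denser design and 2 of the sparser one. The neighbouring ligand gene Pdcd1lg2, encoding PD-L2, read 0.18 for ARF-104, 0.59 for ARF-110, -0.17 for ARF-112, 0.40 for ARF-128 and 0.15 for ARF-129. Il33, an alarmin, was above 0 in 5 of 5 at 0.35 ± 0.14 (SD, n = 5).

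Metabolic genes had a median of 0.52, and 11 of the 12 measured were above 0 in all 5 tumours. The stearoyl-CoA desaturases Scd1, Scd2, Scd3 and Scd4 averaged 0.39, 0.57, 0.65 and 0.47, and the fatty acid desaturases Fads1 and Fads2 averaged 0.58 and 0.63. Got1, the cytosolic aspartate aminotransferase, averaged 0.76 ± 0.18 (SD, n = 5). Gldc, the glycine decarboxylase, was the 1 gene of the list called higher than its flanks, at 0.22 (limma, adjusted p = 0.049, and adjusted p = 0.345 with an estimated correlation within scan days). Got1 stood above its flanks by 0.25 but was not called (limma, adjusted p = 0.064). Cyp17a1, a steroid hydroxylase with 1 probe, ranged from -2.49 in ARF-128 to 0.49 in ARF-110. The sparser array gave 0.29 for ARF-128.

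Of 7 genes of DNA replication and repair, 5 were measured in every tumour, all above 0 in 5 of 5, with a median of 0.51. Fen1, the flap endonuclease, read 0.43 for ARF-104, 0.53 for ARF-110, 0.44 for ARF-112, 0.52 for ARF-128 and 0.64 for ARF-129. Mus81, a structure-specific nuclease, averaged 0.61 ± 0.16 (SD, n = 5). No gene of this list departed from its flanks by limma after adjustment. At an unadjusted p under 0.05, 0 of 5 were higher and 2 lower, beside 136 and 163 of 684 genes of chromosome 19. Rad9a, of the checkpoint clamp, had probes on the denser design alone, where it lay between -0.66 and -0.03.

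Clustered gene families were described by their median level, beside 0.44 for all genes of chromosome 19. The 38 olfactory receptor genes (Olfr) measured in every tumour had a median level of 0.51. Of these 38, 8 were called higher and 2 lower than their flanks, beside 8.77% higher and 10.2% lower over chromosome 19. The 16 genes of the Ms4a family of tetraspanning membrane proteins had a median of 0.25, with 1 called higher and 4 called lower. The Cyp2c cytochromes had a median of 0.28 over 8 genes, the Slc22a transporters 0.31 over 4 and the interferon-induced Ifit genes 0.26 over 3. In Slc22a and Ifit 1 gene each was called lower than its flanks. None of these calls was made with scan day as the random block, where limma called 0 genes. Probes in such families can bind related copies, which was not tested.

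The largest departures sat on genes with few probes. Among genes with 2 or more probes, those highest above their flanks were AK158017 (0.70), AY395631 (0.59), Lzts2 (0.59), Trim8 (0.54) and Twnk (0.53). Lzts2 is a leucine zipper protein, Trim8 a ubiquitin ligase and Twnk the helicase of mitochondrial DNA. Twnk departed by 0.66 for ARF-104, 0.23 for ARF-110, 0.60 for ARF-112, 0.40 for ARF-128 and 0.76 for ARF-129. The lowest were Ccdc186 (-0.82), Ms4a10 (-0.76), AK006988 (-0.67), AK156653 (-0.65) and Ankrd2 (-0.65), a muscle ankyrin repeat protein. All 10 had an adjusted p between 0.036 and 0.046 by limma. Of genes with 1 probe, the highest were Olfr1500 (0.95), Tmem223 (0.93) and Marveld1 (0.81), and the lowest AK085562 (-1.21), X90829 (-1.18) and Hps6 (-1.14), a subunit of a complex for lysosome-related organelles. These 16 were picked among genes with a limma adjusted p under 0.05 that departed the same way in 5 of 5 tumours. Their adjusted p lay between 0.333 and 0.36 with an estimated correlation within scan days.

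The probe of Marveld1, a membrane protein gene, was far above 0 on every array. It read 1.31 in ARF-104, 1.42 in ARF-128 and 1.45 in ARF-129, and 1.59 on the sparser array of ARF-128. ARF-110 was lowest, at 0.96, and ARF-112 lay between ARF-110 and ARF-104. It lies at chr19:42045432-42045491.
Marveld1 probe: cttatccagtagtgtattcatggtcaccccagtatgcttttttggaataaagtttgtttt

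In bins of 200 kb, 12 of 177 bins of chromosome 19 were higher than their flanks by limma, or 6.78%, beside 5.87% of all autosomal bins. A further 25 were lower, or 14.1%, beside 14.0%. With normexp background correction the counts were 32 higher and 4 lower of 177, beside 442 and 78 of 5538 autosomal bins. The share of higher bins was then larger on chromosome 19. With the scan-day block limma called 0 and 0, on chromosome 19 and over all autosomes. At an unadjusted p under 0.05 in that fit, 6 bins were higher and 21 lower, beside 269 and 666 of 5538. The highest bins were chr19:26800001-27000000 with Vldlr, the VLDL receptor (0.25), chr19:10000001-10200000 with Syt7, a calcium sensor of exocytosis (0.23), and chr19:9800001-10000000 with Fads1 and Fen1 (0.13). The lowest were chr19:27600001-27800000 within Rfx3, a transcription factor of ciliated cells (-0.28), chr19:3600001-3800000 with Chka, a choline kinase (-0.26), and chr19:46600001-46800000 with Nt5c2, a nucleotidase (-0.25). These bins were picked among those with a limma adjusted p under 0.05, and their adjusted p lay between 0.016 and 0.026.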

How the data were processed

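The members, gene lists, segment settings and comparisons were chosen with earlier results of these data known. Per the labels, 3 µg of DNA was digested with AluI and RsaI and labelled, with tumour DNA in Cy5 and C57BL/6J DNA in Cy3. Per the file headers, the authors' red and green processed intensity came from Agilent Feature Extraction, version 8.5.1.1 for the sparser design, 9.5.3.1 for the denser array of ARF-128 and 9.1.3.1 for the other arrays. The deposited log10 ratio of each spot was an alternative. The authors' deposited value table holds log2 ratios for the denser and log10 ratios for the sparser design, and its columns correlated at 1 with the scanner ratios, a match of scale and direction. Its column medians were 0.0015 for ARF-110 and 0.021 for ARF-128 in log10, and in log2 0.051 for ARF-128, 0.038 for ARF-129, 0.026 for ARF-112 and 0.023 for ARF-104. The mm7 coordinates of the denser ARF-128 array, which its header names, were carried to the other arrays by probe name. Gene names were updated through a GRCm38.p6 table (546 of 840 by accession, 12 by symbol, 3 by synonym, 279 kept as in the files).

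Values are log2 of processed red over green intensity without control spots and flagged outliers, as means over repeats of a probe, minus the autosomal median of the array, with no loess. Segmentation used penalised least squares (PELT) with 5 or more probes to a segment, a penalty of 5 log n and a call at 0.25. A departure is the mean of a gene or bin minus the median of the probes within 1 Mb on either side (at least 10), tested with an intercept in limma 3.58.1 (eBayes, Benjamini-Hochberg over all autosomal features). Named genes are at least 2 of each list, the 5 largest departures each way among called genes with at least 2 probes and the same sign in 5 tumours, the 3 largest each way with 1 probe, and the 3 largest bins each way. Scripts were tested on simulated data. Tools were numba 0.67.0, scipy 1.17.1, pandas 2.3.3, numpy 2.4.6 and Python 3.11.15, with statmod 1.5.0 in R 4.3.3. Red signal was 4.11 to 11.1 times its background, at most 0.641% of chromosome 19 probes on an array were not well above background, and 2 spots were saturated. Precision is limited by how few arrays there are. Each numbered tumour was taken as 1 animal. Where that is wrong, p-values measure only the spread between these samples, which may be technical. Some listed genes are not reported here.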

Additional observations from a re-analysis of the deposited data

Results flagged for a closer look

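In 79 sets of 5 tumour values on chromosome 19, 7 had a tumour far from the other 4, by a gap of more than 0.71 of the whole range. Chance alone marks about 1 set in 20. The distal minus proximal difference was -0.020 in ARF-112, against 0.011 to 0.019 in the other tumours, and the 3 interrupted stretches of ARF-112 lie on both sides of this comparison. Nfkb2, an NF-kB subunit gene with 1 probe, read -0.62 in ARF-128, against 0.44 to 0.69 in the others. Tlx1, a homeobox gene with 1 probe, read -0.74 in ARF-128, against 0.41 to 0.69. On the sparser array of ARF-128 these genes read 0.41 and 0.72. The single probe of Men1 read 2.29 in ARF-129, against 0.59 to 1.06. Cd274 read 0.37 in ARF-110, against -0.21 to -0.06. Fads2 read 0.88 in ARF-129, against 0.52 to 0.62, and Mus81 read 0.89 there, against 0.50 to 0.59. ARF-129 also had the highest level of the whole chromosome.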

How the results depend on the processing

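The mean level of chromosome 19 stayed between 0.31 (normexp) and 0.47 (centred on the mode) over the other processings and between 0.40 and 0.48 when a tumour was left out. The distal minus proximal difference stayed between 0.0046 and 0.014 without each tumour, and was -0.0083 with 2 equal parts. The count of bins gained in all 5 tumours was 14 to 56 without each tumour (56 without ARF-112), 55 at a threshold of 0.15, and 0 at 0.35, with a penalty of 10 log n, with normexp and with the probes of both designs. Genes higher than their flanks numbered 102 with the sparser array of ARF-128, 118 with the mean of both arrays, 97 with normexp, 30 with at least 2 probes on every array (fewer genes could be tested), 0 with loess and 0 with scan day as a block. Over all autosomal genes the first 4 of these counts were 2590 of 19741, 3160 of 19743, 1849 of 19743 and 819 of 10493. Genes lower numbered 134 with the mean of both arrays (3897 of 19743 over all autosomes), 0 with loess and 0 with scan day as a block. With loess, 113 were higher and 116 lower at an unadjusted p under 0.05, beside 3170 and 2928 of 19743 autosomal genes. Without each tumour the counts ran from 0 to 148 higher and 0 to 163 lower. The counts on chromosome 19 were 0 without ARF-104 (92 and 113 at an unadjusted p under 0.05), ARF-112 (88 and 111) or ARF-129 (85 and 111). Over all autosomal genes these unadjusted counts were 2374 and 3126, 2309 and 3115, and 2289 and 2997. Without ARF-110, when 840 genes could be tested, 148 and 163 were called, beside 3600 and 4580 of 24903 autosomal genes. Bins of 200 kb higher than their flanks numbered 6 with the sparser array, 19 with the mean of both, 32 with normexp, 2 with loess and 0 with the block. Those lower numbered 14 with the sparser array, 4 with normexp, 1 with loess and 0 with the block. Over all autosomal bins the same counts were 227, 532, 442, 74 and 0 higher, and 525, 78, 61 and 0 lower. Without each tumour the bins of chromosome 19 ran from 0 to 31 higher and 0 to 53 lower, with 0 when any of ARF-104, ARF-112 and ARF-129 was left out. With the probes of both designs the departures of Fosl1 (-0.61), Jak2 (-0.34), Grk2 (0.40) and Pcx (0.74) turned sign. The Ide stretch lay below its flanks by -0.65 in ARF-104, -0.69 in ARF-112 and -0.26 in ARF-129 with normexp, and by -1.05 in ARF-112 and -1.07 in ARF-129 with loess. With normexp the 990 kb segment of ARF-112 stood -0.17 from its flanks. The 3 stretches of ARF-112, of which the second and the third lie in that segment, stood -0.21, -0.20 and -0.22 from theirs. Other than as built, the cause of these shifts was not tested. No paired analysis was possible because all samples form 1 group. Probe noise of 0.78 on the denser array of ARF-128 limits what short departures could be seen there, as does the absence of sparser-design probes from the Ide stretch.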
